A study of Rattus norvegicus with 12 samples.

Results

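The comparison described here sets rat livers perfused in the cold with oxygenated solution (HOPE 1 h) against livers perfused at the same flow and temperature without oxygenation (HMP 1 h). The members were taken from the sample labels and comprised 6 of the 12 sequenced livers, 3 in each group. All livers came from male Sprague Dawley rats aged 6 to 8 weeks and 1 RNA library was made from each liver. Both perfused groups had 30 min of warm ischemia, then 3 h of static cold storage in HTK preservation solution, then 1 h of perfusion through the portal vein at 4 °C and 1.2 mL/min. An oxygenator held the HOPE perfusate, HTK solution, at a PO2 of 60 to 80 kPa, and the HMP perfusate was not oxygenated. The other 6 livers served as a reference: 3 had only the 30 min of warm ischemia (WI 30 min) and 3 after the same ischemia and 4 h of static cold storage (SCS 4 h). According to the study's methods the tissue was taken before the step that stands in for transplantation, so the RNA shows the organ at the end of preservation.

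Cells sense oxygen through prolyl hydroxylases, which mark the α subunits of hypoxia-inducible factors (HIF) for destruction when oxygen is present. When oxygen falls, HIF accumulates and switches on genes for glycolysis, angiogenesis and removal of mitochondria. Cooling slows transcription, RNA decay and respiration together, so RNA levels in a cold organ change slowly, and mitochondria that regain oxygen can resume electron flow and also release reactive oxygen species. Levels are given here as CPM (counts divided by the scaled library total, as edgeR defines it), and differences as log2 fold changes of HOPE over HMP with the standard error (SE) of the fit, so that a positive value means a higher level with oxygen.

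The libraries held 15262961 to 18343167 gene counts, and the 6 perfused ones 16563806 to 18343167. Albumin (Alb), the main product of hepatocytes, stood between 101700 and 139300 CPM in the 6 perfused livers. A pair of livers stood apart from their own groups. HMP liver 1 had 18.7% of its counts from mitochondrial DNA, whereas HMP livers 2 and 3 had 4.79% and 5.27%. The HOPE livers had 6.56%, 9.2% and 10.2%. The mean share was 8.65% ± 1.87 (SD, n = 3) in the HOPE group and 9.58% ± 7.88 (SD, n = 3) in the HMP group, and an exact two-sided permutation test gave p = 1 (3 against 3 livers cannot go below 0.1). Without HMP liver 1 the difference of the means turned from -0.928 to 3.62 percentage points. A score over 70 markers of cells other than hepatocytes (the mean centred log2 CPM) reached 0.97 in liver 1 of the HMP group and 0.76 in liver 3 of the HOPE group, against -0.22 and -0.29 in the other two HMP livers and -0.27 and 0.1 in the other two HOPE livers.

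**Figure D1:**
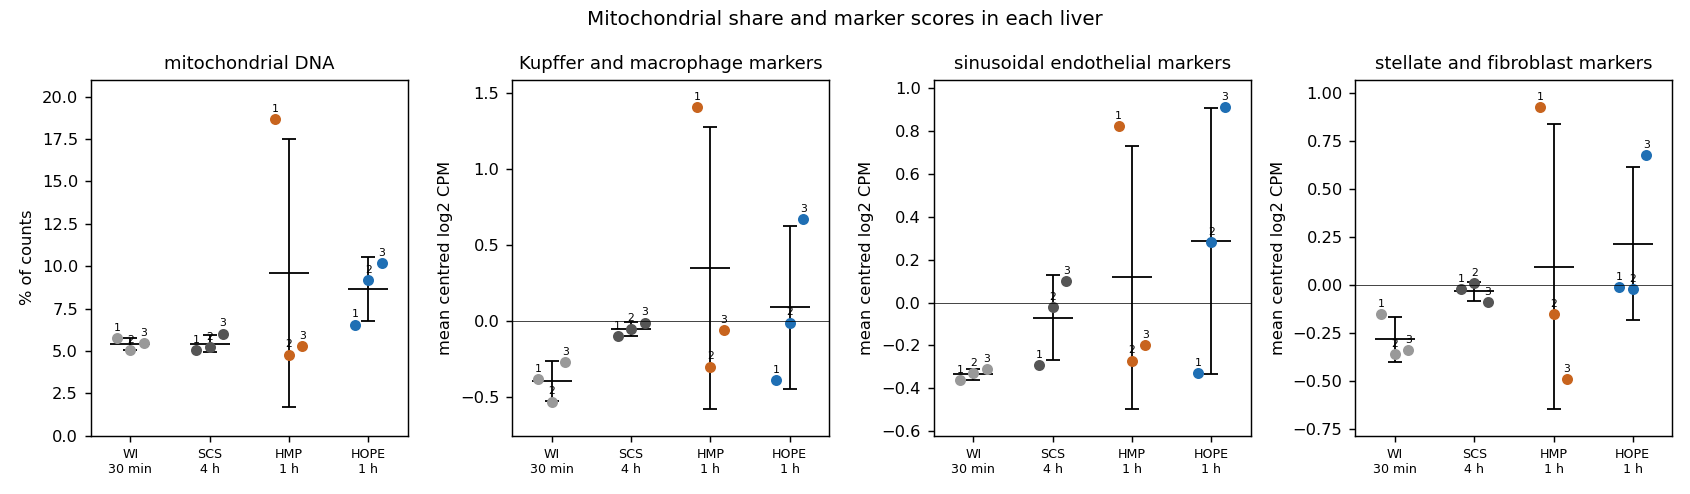
Share of counts from mitochondrial DNA (percent) and marker scores (mean centred log2 CPM) in each of the 12 livers by group, where points are livers labelled with their replicate number and bars are the mean ± SD of 3 livers. HMP liver 1 lay at 18.7% mitochondrial counts, and HMP liver 1 and HOPE liver 3 were the highest of their groups for each set of markers.

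The marker lists followed these livers. Of 19 Kupffer cell and macrophage markers tested, 18 were lower with oxygen when all livers were used, with a median log2 fold change of -0.33. Without HMP liver 1 the number lower was 2 and the median 0.35, and without HOPE liver 3 all 19 were lower, with a median of -0.74. For 21 sinusoidal endothelial markers the median went from 0.12 to 0.58 and to -0.23 in the same 3 fits. For 18 stellate cell and fibroblast markers it went from 0.07 to 0.52 and to -0.17. The summed Kupffer markers reached 2840 CPM in HMP liver 1 and 856 and 990 CPM in the other two HMP livers, and 821, 1040 and 1690 CPM in the HOPE livers. In bulk RNA, fewer cells of a type and less RNA per cell cannot be told apart. The part of these markers in the results below was not tested, and each result was also computed without HMP liver 1 and without HOPE liver 3.

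Of 33744 genes in the table, 13687 had enough counts to be tested. No gene passed an adjusted p under 0.05 in the edgeR quasi-likelihood test with Benjamini-Hochberg adjustment (0.0% of those tested; lowest adjusted p = 0.558). None passed without HMP liver 1 either (0.0% of 13887; lowest adjusted p = 0.074), nor without HOPE liver 3 (0.0% of 13929; lowest adjusted p = 0.679). At an unadjusted p under 0.05, 1024 genes (7.48%) were counted, 542 of them higher and 482 lower with oxygen. DESeq2 called 15 genes on the same counts and limma voom with quality weights called 0. The median log2 fold change over all genes was -0.01 and the median SE 0.24.

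The separation of single livers gives a view that does not need a model. All 3 HOPE livers lay above all 3 HMP livers for 852 genes (6.22% of those tested) and below them for 669 genes (4.89%). With no group difference, each direction would still arise in 1 of the 20 possible assignments of 6 livers. These shares are therefore a description without a test. The unperfused livers show which of the perfused groups departed. All 3 HMP livers were below all 9 other livers for 247 genes (1.8%) and above all of them for 121 genes (0.884%). All 3 HOPE livers were above the 9 others for 61 genes (0.446%) and below them for 83 genes (0.606%). Among the 852 genes higher with oxygen, the median of the 6 unperfused livers was nearer to the HOPE mean for 551 (64.7%), beside 56.1% of all genes tested. The 669 genes lower with oxygen gave 352 (52.6%).

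**Figure D2:**
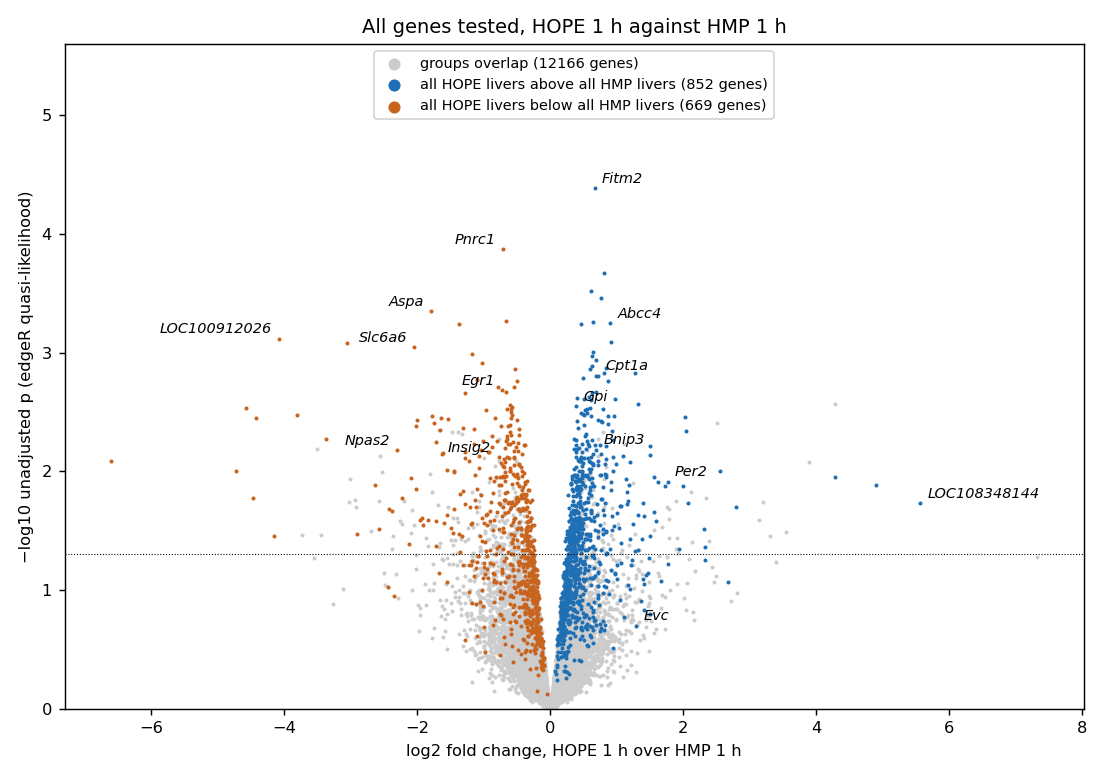
Log2 fold change of HOPE 1 h over HMP 1 h against -log10 of the unadjusted edgeR p for all 13687 genes tested, 1 point per gene; the dotted line marks an unadjusted p of 0.05. Colours mark the 852 genes with all HOPE livers above and the 669 with all HOPE livers below the HMP livers, and no gene passed the adjusted threshold.

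The machinery that senses oxygen was near equal in both groups. Of 14 genes of the HIF pathway tested, 7 were higher and 7 lower, none separated the livers, and the median was -0.02. Hif1a, an oxygen-labile α subunit, stood at 43.4, 54.7 and 59 CPM in the HMP livers and 55, 67.3 and 59.3 CPM in the HOPE livers (log2 fold change 0.21, SE 0.16). The ranges overlapped. Epas1, which encodes HIF-2α, differed by 0.05 (SE 0.16), and Egln1, the main prolyl hydroxylase, by -0.09 (SE 0.16).

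Among 27 further hypoxia-response genes, 14 were higher and 13 lower, with a median of 0.03, and 2 separated the livers in each direction (7.41% each way, near the 6.22% higher and 4.89% lower of all genes). The 2 higher with oxygen were Bnip3 and Higd1a. Bnip3, a receptor on the mitochondrial surface that marks mitochondria for removal, stood at 81.9, 77.8 and 108 CPM in the HMP livers and 109, 180 and 144 CPM in the HOPE livers. The gap between HMP liver 3 and HOPE liver 1 was under 1 CPM on the unrounded values. The log2 fold change was 0.69 (SE 0.21; adjusted p = 0.558 by the edgeR quasi-likelihood test), 0.61 without HMP liver 1 and 0.70 without HOPE liver 3. Higd1a, a small inner-membrane protein that binds the respiratory chain, stood at 12.9, 17 and 23.6 CPM without oxygen and 25.5, 33.3 and 30.9 CPM with it (log2 fold change 0.75, SE 0.22). For Bnip3 the HOPE mean was 144 CPM, beside 131 CPM after static storage and 122 CPM after warm ischemia. For Higd1a it was 29.9 CPM, beside 28.6 and 24.2 CPM. HMP livers 1 and 2 were below all unperfused livers for both genes, and HMP liver 3 was within their range.

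The 2 lower with oxygen were Insig2 and Kdm3a. Insig2, which holds the sterol sensor in the endoplasmic reticulum and is also a HIF target, stood at 362, 429 and 343 CPM in the HMP livers and 284, 235 and 144 CPM in the HOPE livers (log2 fold change -0.77, SE 0.24). The unperfused livers, at 283 to 525 CPM, overlapped the HMP livers and reached down to HOPE liver 1, and HOPE liver 3 was the lowest. Kdm3a, a histone demethylase under HIF control and named after its values were seen, differed by -0.24 (SE 0.14). Vegfa, the main angiogenic factor, overlapped between the groups at 112, 146 and 126 CPM against 126, 126 and 95.6 CPM.

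HIF binds DNA at a short core, ACGTG or GCGTG, which was searched on both strands in the 300 bases around each gene start given by RefSeq. Promoters were not displayed for Kdm3a and Vegfa. Those of Bnip3, Higd1a and Insig2 are shown because they bear on whether these separated genes carry that core. The promoter of Ldha, a textbook HIF target, is shown beside them. All are from build GRCr8, another build than the counts, with the core or its complement in capitals. They lie at chr1:203154913-203155212 for Bnip3, chr8:130400839-130401138 for Higd1a and chr13:35040049-35040348 for Insig2, all on the minus strand, and at chr1:106507842-106508141 on the plus strand for Ldha.

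Bnip3: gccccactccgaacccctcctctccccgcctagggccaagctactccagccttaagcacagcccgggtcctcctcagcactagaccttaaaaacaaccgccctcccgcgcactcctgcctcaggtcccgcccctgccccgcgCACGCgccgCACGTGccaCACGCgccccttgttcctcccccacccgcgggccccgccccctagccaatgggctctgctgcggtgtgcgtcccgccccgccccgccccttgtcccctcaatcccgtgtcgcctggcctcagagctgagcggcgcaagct

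Higd1a: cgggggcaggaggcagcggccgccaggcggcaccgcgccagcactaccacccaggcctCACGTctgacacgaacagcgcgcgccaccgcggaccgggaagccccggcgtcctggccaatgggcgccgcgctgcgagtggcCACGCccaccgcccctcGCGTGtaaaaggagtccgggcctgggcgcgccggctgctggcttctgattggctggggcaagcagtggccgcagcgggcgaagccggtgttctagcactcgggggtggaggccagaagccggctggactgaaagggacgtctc

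Insig2: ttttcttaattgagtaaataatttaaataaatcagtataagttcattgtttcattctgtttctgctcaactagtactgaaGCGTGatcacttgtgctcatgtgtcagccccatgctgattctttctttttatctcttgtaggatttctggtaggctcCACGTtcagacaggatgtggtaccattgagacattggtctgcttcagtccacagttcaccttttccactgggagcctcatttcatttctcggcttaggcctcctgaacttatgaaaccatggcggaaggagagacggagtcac

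Ldha: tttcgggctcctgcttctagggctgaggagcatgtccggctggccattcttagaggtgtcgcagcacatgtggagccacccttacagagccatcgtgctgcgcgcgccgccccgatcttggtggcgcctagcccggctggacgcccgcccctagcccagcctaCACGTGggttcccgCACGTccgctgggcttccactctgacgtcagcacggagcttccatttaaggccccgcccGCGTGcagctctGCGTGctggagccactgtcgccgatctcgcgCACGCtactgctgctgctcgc

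The Bnip3 window held 4 matches by start position and the Ldha window 6, where the palindrome CACGTG counts once on each strand and is also the E-box bound by clock and Myc proteins. The Higd1a window held 3 and the Insig2 window 2. The core is common: 42.9% of all 27457 promoters held it, and 61.3% of the 9512 tested genes with a promoter of the same symbol. It was found in 19 of 22 hypoxia-response genes matched (86.4%), in 67.1% of the genes with all HOPE livers higher and in 64.3% of those with all HOPE livers lower. Tested genes with the core had a median log2 fold change of 0.00 and those without it -0.02. A match is only a description of the letters.

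Of 24 glycolytic and lactate-handling genes, 16 were higher and 8 lower with oxygen, with a median of 0.15 (0.20 without HMP liver 1, 0.05 without HOPE liver 3), and 2 separated the livers, both higher (8.33%, beside 6.22% of all genes). Gpi, which turns glucose 6-phosphate into fructose 6-phosphate, stood at 97.8, 95.1 and 96.7 CPM in the HMP livers and 117, 130 and 132 CPM in the HOPE livers (log2 fold change 0.39, SE 0.10). Tpi1, triosephosphate isomerase, was counted at only 1 to 3.93 CPM, low for this enzyme, and reads shared with near-identical copies may be missing, so its value is uncertain. Ldha, the lactate dehydrogenase subunit of which leakage marks cell injury, overlapped at 1017, 872 and 975 CPM against 1055, 1047 and 977 CPM (log2 fold change 0.11, SE 0.18). Pgk1, phosphoglycerate kinase, differed by 0.08 (SE 0.16). Both perfused groups lay below the unperfused means for Ldha, 1923 CPM after static storage and 1773 CPM after warm ischemia.

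Enzymes that defend against oxidants were mixed as a list, while a few glutathione and conjugation genes separated the livers. Of 45 antioxidant enzymes and targets of the transcription factor Nrf2, 26 were higher and 19 lower, with a median of 0.03; 6 had all HOPE livers higher (13.3%, beside 6.22% of all genes) and 1 had all HOPE livers lower (2.22%, beside 4.89%). Gclc, the catalytic subunit of the rate-limiting enzyme of glutathione synthesis, stood at 107, 71.9 and 100 CPM without oxygen and 142, 140 and 145 CPM with it (log2 fold change 0.61, SE 0.22). All 3 HMP livers were below all 9 other livers. Ephx1, microsomal epoxide hydrolase, stood at 445, 482 and 486 CPM against 638, 680 and 606 CPM (log2 fold change 0.45, SE 0.18), and the HOPE livers were above all 9 others.

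Abcc4, an export pump for organic anions, was the antioxidant-list member with the lowest unadjusted p. It stood at 4.17, 5.87 and 4.01 CPM in the HMP livers and 9.74, 8.36 and 8.29 CPM in the HOPE livers. The unperfused livers stood at 5.69 to 7.57 CPM, below the HOPE livers and overlapping HMP liver 2. The log2 fold change was 0.91 (SE 0.19; adjusted p = 0.558 by the edgeR quasi-likelihood test, and 0.0409 by DESeq2). Nqo1, Hmox1, Sod1 and Sod2 did not separate the livers. Nqo1, a quinone reductase, stood at 16.6, 25.3 and 22.9 CPM against 23.4, 49.7 and 25.3 CPM, with HOPE liver 2 standing out. Hmox1, heme oxygenase, changed sign with 1 liver, from -0.10 (SE 0.34) with all livers to 0.40 without HMP liver 1, which held 72.6 CPM. Sod1 and Sod2, the cytosolic and mitochondrial superoxide dismutases, differed by -0.25 (SE 0.23) and 0.05 (SE 0.12).

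Several genes that burn fatty acids were lower in the livers perfused without oxygen than in any other liver. Of 40 fatty acid oxidation genes tested, 31 were higher and 9 lower with oxygen, with a median log2 fold change of 0.13 (0.10 without HMP liver 1, 0.12 without HOPE liver 3). All HOPE livers were higher for 8 of them (20%, beside 6.22% of all genes) and lower for 0 (beside 4.89%), and the HMP livers were below all 9 other livers for 7 of the 40 (beside 1.8% of all genes). The list score was -0.28, -0.47 and -0.28 in the HMP livers and -0.13, -0.24 and -0.19 in the HOPE livers, so that HMP liver 1 and HOPE liver 2 were only narrowly apart. Both groups lay below the mean scores after static storage, 0.31, and after warm ischemia, 0.22.

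Cpt1a, the gate for entry of long-chain fatty acids into mitochondria, stood at 651, 456 and 715 CPM in the HMP livers and 912, 1079 and 1022 CPM in the HOPE livers. The means were 607 ± 135 and 1004 ± 84.8 CPM (SD, n = 3), beside 1018 ± 110 CPM after static storage and 1065 ± 102 CPM after warm ischemia. The log2 fold change was 0.73 (SE 0.18; adjusted p = 0.558 by the edgeR quasi-likelihood test), 0.75 without HMP liver 1 and 0.71 without HOPE liver 3. The HMP group was thus the one that departed from the other 9 livers. The gene lies at chr1:218569510-218629678 on the plus strand of Rnor_6.0.

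Cpt2, which completes that transport on the inner membrane, stood at 136, 166 and 167 CPM against 209, 276 and 216 CPM (log2 fold change 0.58, SE 0.15). Cyp4a1, the ω-hydroxylase of fatty acids controlled by PPARα, stood at 500, 374 and 418 CPM against 582, 663 and 714 CPM (log2 fold change 0.60, SE 0.21). The HMP livers were again the low group for both genes, and for Cyp4a1 the HOPE livers did not reach the static storage mean of 1045 CPM. Hadhb, a subunit of the mitochondrial trifunctional protein named after its values were seen, differed by 0.35 (SE 0.18). Hadha, the partner subunit of Hadhb, separated the groups by a small step, from 378 to 412 CPM without oxygen to 444 to 448 CPM with it.

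In the tricarboxylic acid cycle, 21 of 27 genes were higher and 6 lower, and 4 had all HOPE livers higher (14.8%, beside 6.22% of all genes). The median, 0.15, was 0.00 without HMP liver 1 and 0.18 without HOPE liver 3. Idh3a, a subunit of the NAD-dependent isocitrate dehydrogenase, stood at 22.5, 23.5 and 25.1 CPM in the HMP livers and 32.9, 40.3 and 28.5 CPM in the HOPE livers (log2 fold change 0.52, SE 0.16). Dlat, the acetyl transfer subunit of pyruvate dehydrogenase, stood at 17.3, 16.4 and 16.9 CPM against 19.9, 26 and 20.4 CPM (log2 fold change 0.39, SE 0.14), with the HMP livers below the 9 others.

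Nuclear genes of the respiratory chain leaned the other way. Of 74 nuclear genes for subunits of the chain and ATP synthase, 24 were higher and 50 lower with oxygen, 9 had all HOPE livers lower (12.2%, beside 4.89% of all genes) and 0 had all HOPE livers higher (beside 6.22%). The median was -0.07, -0.16 without HMP liver 1 and -0.09 without HOPE liver 3. Ndufa3, an accessory subunit of complex I, stood at 28.5, 32.7 and 40.6 CPM against 23.4, 28.4 and 26.9 CPM (log2 fold change -0.37, SE 0.16), with the HOPE livers below all 9 others. The 13 mRNAs encoded by mitochondrial DNA depended on 1 liver: all 13 were lower with oxygen using all livers (median -0.17) and all 13 were higher without HMP liver 1 (median 0.65). The mean difference of their log2 CPM was 0.07, opposite in sign to the median of the fit.

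**Figure D3:**
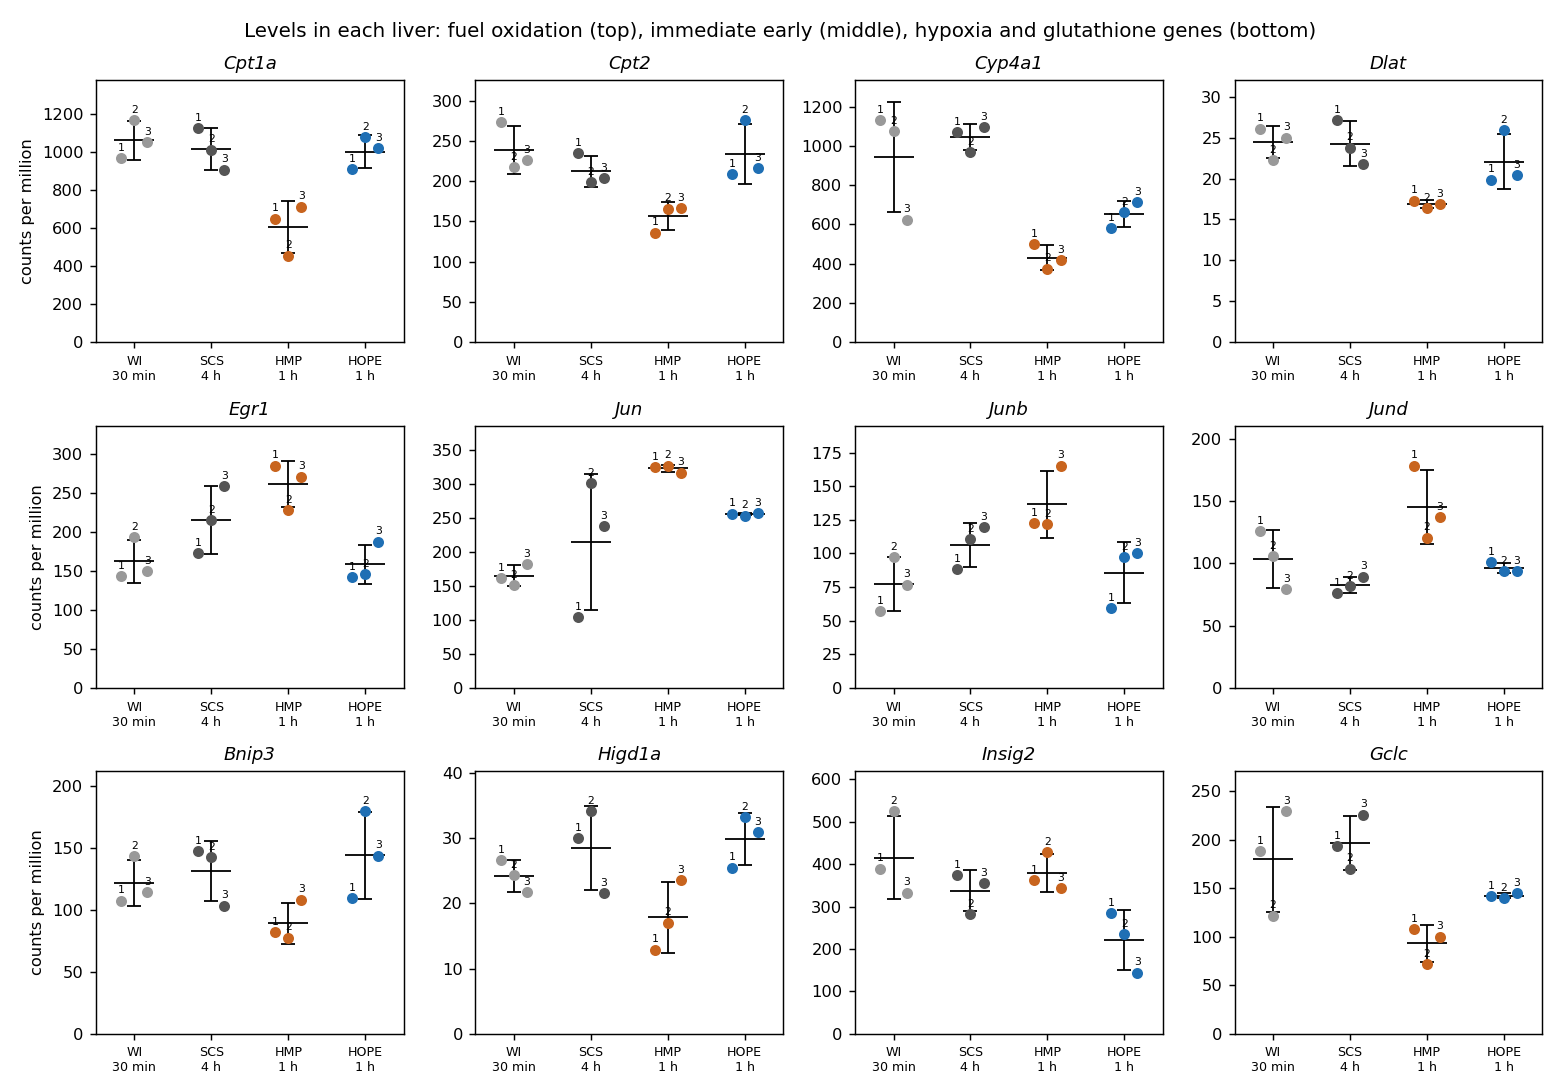
Levels in CPM of 12 genes in each of the 12 livers by group; points are livers with their replicate number and bars the mean ± SD of 3 livers. In the top row all HMP livers lie below all 9 other livers, and in the middle row the HMP livers are above the HOPE livers, for Egr1 at 228 to 285 against 142 to 188 CPM.

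Immediate early genes, transcribed within minutes of a stimulus without new protein, had mostly lower levels with oxygen. Of 35 tested, 29 were lower and 6 higher; 7 had all HOPE livers lower (20%, beside 4.89% of all genes) and 0 had all HOPE livers higher (beside 6.22%). The median of -0.28 was -0.09 without HMP liver 1, when 20 were lower, and -0.50 without HOPE liver 3, when 31 were lower. The list score stood at 0.63, 0.28 and 0.17 in the HMP livers and at -0.16, -0.02 and 0.5 in the HOPE livers, which overlapped because HOPE liver 3 was high. The means after static storage, -0.26, and after warm ischemia, -0.21, were below those of both perfused groups.

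Egr1, a zinc finger transcription factor of this class, stood at 285, 228 and 271 CPM in the HMP livers and 142, 146 and 188 CPM in the HOPE livers. The means were 261 ± 29.8 and 159 ± 25.3 CPM (SD, n = 3), and the groups did not overlap. The log2 fold change was -0.72 (SE 0.18; adjusted p = 0.558 by the edgeR quasi-likelihood test), -0.68 without HMP liver 1 and -0.86 without HOPE liver 3. Static storage livers, at 173 to 259 CPM, spanned the gap.

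The Jun family, subunits of the transcription factor AP-1, had the same order. Jun stood at 325, 327 and 316 CPM without oxygen and 256, 253 and 257 CPM with it, a small and even step (log2 fold change -0.34, SE 0.28). Junb stood at 122, 122 and 165 CPM against 59.5, 97.2 and 100 CPM (log2 fold change -0.67, SE 0.24). For Jun and Junb the HMP livers were above all 9 others. Jund stood at 179, 121 and 137 CPM against 101, 94 and 94.1 CPM (log2 fold change -0.60, SE 0.18). Fos, the other partner in AP-1, did not follow: it stood at 75.8, 42.1 and 16.8 CPM against 23.4, 26.7 and 75.5 CPM, highest in HMP liver 1 and HOPE liver 3, and its log2 fold change turned from -0.10 to 0.48 without HMP liver 1. Btg2, an antiproliferative early gene, and Ier2, both named after their values were seen, differed by -0.70 (SE 0.28) and -0.57 (SE 0.21), with the groups apart.

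Most chaperones had higher levels with oxygen. Of 25 cytosolic and mitochondrial chaperones, 20 were higher and 5 lower, with a median of 0.31 (0.18 without HMP liver 1, 0.25 without HOPE liver 3), and 3 had all HOPE livers higher (12%, beside 6.22% of all genes). Stip1, which passes clients from Hsp70 to Hsp90, stood at 40.1, 36.5 and 45.3 CPM in the HMP livers and 48.5, 69.2 and 64.3 CPM in the HOPE livers (log2 fold change 0.58, SE 0.18). Hsph1, a nucleotide exchange factor for Hsp70, stood at 30, 31.9 and 52.8 CPM against 49.2, 113 and 85.5 CPM (log2 fold change 1.11, SE 0.33), and HOPE liver 1 lay within the HMP range. Both groups were below the unperfused means, for Hsph1 121 CPM after static storage and 113 CPM after warm ischemia. The counts of Hsp90aa1, at 3.43, 4 and 12.4 CPM against 14, 18.5 and 12.4 CPM, were low for an abundant chaperone and may lack reads shared with related copies.

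Mitophagy, the selective removal of damaged mitochondria, was examined by the study through proteins, electron microscopy and autophagy inhibitors. From z-scores of its RNA data, compared over all its groups, the study also reported that HOPE activated the autophagy pathway. Its gene ontology mapping of the same data placed processes of cell death and autophagy higher in the WI, SCS and HMP groups than with HOPE. Of 29 mitophagy genes tested here, 22 were higher and 7 lower with oxygen, with a median of 0.05. Without HMP liver 1 the tally was 15 higher and 14 lower (median 0.03), and without HOPE liver 3 it was 20 and 9 (median 0.09). With all livers, 4 had all HOPE livers higher (13.8%, beside 6.22% of all genes) and 1 had all HOPE livers lower (3.45%, beside 4.89%). The list score was -0.14, -0.08 and -0.02 in the HMP livers and 0.03, 0.05 and -0.01 in the HOPE livers, apart by a narrow margin. Bnip3 was described above. Mul1, a ubiquitin ligase of the mitochondrial outer membrane, stood at 19.9, 23.2 and 23.8 CPM against 28.3, 31.7 and 29.9 CPM (log2 fold change 0.43, SE 0.14). Parl, the inner-membrane protease that cleaves PINK1, stood at 15.6, 15.9 and 15.5 CPM against 19.1, 18.9 and 18.6 CPM (log2 fold change 0.27, SE 0.12).

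The genes at the centre of that pathway overlapped. Pink1, the kinase that starts ubiquitin-dependent mitophagy, stood at 227, 241 and 268 CPM against 195, 286 and 270 CPM (log2 fold change 0.03, SE 0.15). Sqstm1, which encodes the adaptor p62, differed by 0.24 (SE 0.15), and Map1lc3b, which encodes the autophagosome protein LC3B, by 0.26 (SE 0.20). In the wider autophagy list, 22 of 44 genes were higher and 22 lower, and without HMP liver 1 the tally was 14 and 30 (median -0.07). With all livers, 4 had all HOPE livers lower (9.09%, beside 4.89% of all genes) and 1 had all HOPE livers higher (2.27%, beside 6.22%). Wipi1 leaned higher with oxygen, at 5.54, 4.62 and 6.84 CPM against 6.84, 11.7 and 9.44 CPM (log2 fold change 0.72, SE 0.22). HMP liver 3 and HOPE liver 1 were level for that gene. Stx17, which fuses autophagosomes with lysosomes, was lower in every HOPE liver, at 10.4, 15.2 and 9.08 CPM against 9, 8.24 and 7.87 CPM. The margin was narrow, with HMP liver 3 at 9.08 CPM and HOPE liver 1 at 9 CPM, and HMP liver 2 stood out. The log2 fold change of Stx17 was -0.47 (SE 0.18). Gabarapl2, an LC3 relative, was also lower in every HOPE liver (log2 fold change -0.35, SE 0.15).

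Of the genes for cell death, 14 of 31 were higher and 17 lower with oxygen. The direction turned with 1 liver: 19 were higher and 12 lower without HMP liver 1, and 11 higher and 20 lower without HOPE liver 3. With all livers, 3 had all HOPE livers higher (9.68%, beside 6.22% of all genes) and 1 had all HOPE livers lower (3.23%, beside 4.89%). Bcl2l1, which encodes the survival protein Bcl-xL, stood at 29, 35.1 and 43.1 CPM in the HMP livers and 24.2, 24.4 and 23.6 CPM in the HOPE livers (log2 fold change -0.57, SE 0.15). The HOPE livers were tightly grouped and near the unperfused means of 27.7 and 24.4 CPM. Birc2, an inhibitor of apoptosis, and Diablo, an antagonist of such inhibitors, were both higher in every HOPE liver, by 0.43 (SE 0.18) and 0.34 (SE 0.15). Bax, the pore-forming effector, overlapped, with a difference of -0.01 (SE 0.26), and Bcl2 was counted at 0.533 to 1.05 CPM.

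Genes whose products the study measured as injury markers gave mixed values. Got1, cytosolic aspartate aminotransferase, stood at 200, 492 and 405 CPM against 457, 934 and 512 CPM (log2 fold change 0.79, SE 0.34, and 0.47 without HMP liver 1), with overlap at HOPE liver 1. Gpt, alanine aminotransferase, differed by -0.02 (SE 0.29). Hmgb1, a nuclear protein that acts as a danger signal when released, was counted at 4.8, 4.87 and 5.33 CPM against 7.81, 6.87 and 5.82 CPM (log2 fold change 0.45, SE 0.21). The counted entry lies at chr16:37500017-37502237 of Rnor_6.0. Its level was low for an abundant protein, and reads shared with related copies may be missing, so its value is uncertain. Cycs, cytochrome c, overlapped (log2 fold change 0.19, SE 0.14).

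Sterol synthesis was lower with oxygen in most members. Of 30 cholesterol genes, 24 were lower and 6 higher, with a median of -0.24 (-0.38 without HMP liver 1, -0.23 without HOPE liver 3). All HOPE livers were lower for 4 (13.3%, beside 4.89% of all genes) and higher for 1 (3.33%, beside 6.22%). Idi1, an isomerase of the isoprenoid steps, stood at 7.71, 12.2 and 17.2 CPM in the HMP livers and 7.69, 7.17 and 4.77 CPM in the HOPE livers (log2 fold change -0.92, SE 0.28). HMP liver 1 and HOPE liver 1 were equal to within 0.1 CPM. Srebf2, the master regulator of the pathway and named after its values were seen, stood at 37.7, 36.3 and 40.5 CPM against 34, 29.8 and 26.3 CPM (log2 fold change -0.35, SE 0.13).

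Among hepatocyte functions, the pericentral gene Cyp1a2, a drug-metabolising P450, was lower in every HOPE liver, at 699, 1372 and 949 CPM against 433, 689 and 527 CPM (log2 fold change -0.87, SE 0.26). Of 18 pericentral genes, 14 were lower and 4 higher, with a median of -0.29 (-0.49 without HMP liver 1, -0.19 without HOPE liver 3). All HOPE livers were lower for 1 (5.56%, beside 4.89% of all genes). The list scores overlapped, at -0.58, 0.43 and 0.3 in the HMP livers and -0.22, 0.09 and -0.18 in the HOPE livers. Of 20 periportal genes, 11 were lower and 9 higher, with a median of -0.11. Asl, argininosuccinate lyase of the urea cycle, was higher in every HOPE liver, at 427, 603 and 637 CPM against 826, 1003 and 925 CPM (log2 fold change 0.72, SE 0.23). The urea cycle and amino acid list had 16 of 24 higher and a median of 0.17, which was -0.06 without HMP liver 1, the liver with the lowest score of that list, -0.84.

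Of 43 interferon-stimulated genes, 21 were higher and 22 lower with oxygen, but without HOPE liver 3 the tally was 10 and 33 (median -0.30) and without HMP liver 1 it was 18 and 25 (median -0.09). All HOPE livers were lower for 4 (9.3%, beside 4.89% of all genes) and higher for 1 (2.33%, beside 6.22%). Tap1, which carries peptides to class I molecules, stood at 37.9, 31.7 and 39.8 CPM against 22.9, 16.4 and 29.3 CPM (log2 fold change -0.67, SE 0.22). Psmb9, a subunit of the immunoproteasome, stood at 21.3, 22.9 and 19.9 CPM against 9.34, 11.3 and 19.3 CPM (log2 fold change -0.68, SE 0.25). The HMP livers were above all 9 others for both genes, and HOPE liver 3 was the nearest to them.

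**Figure D4:**
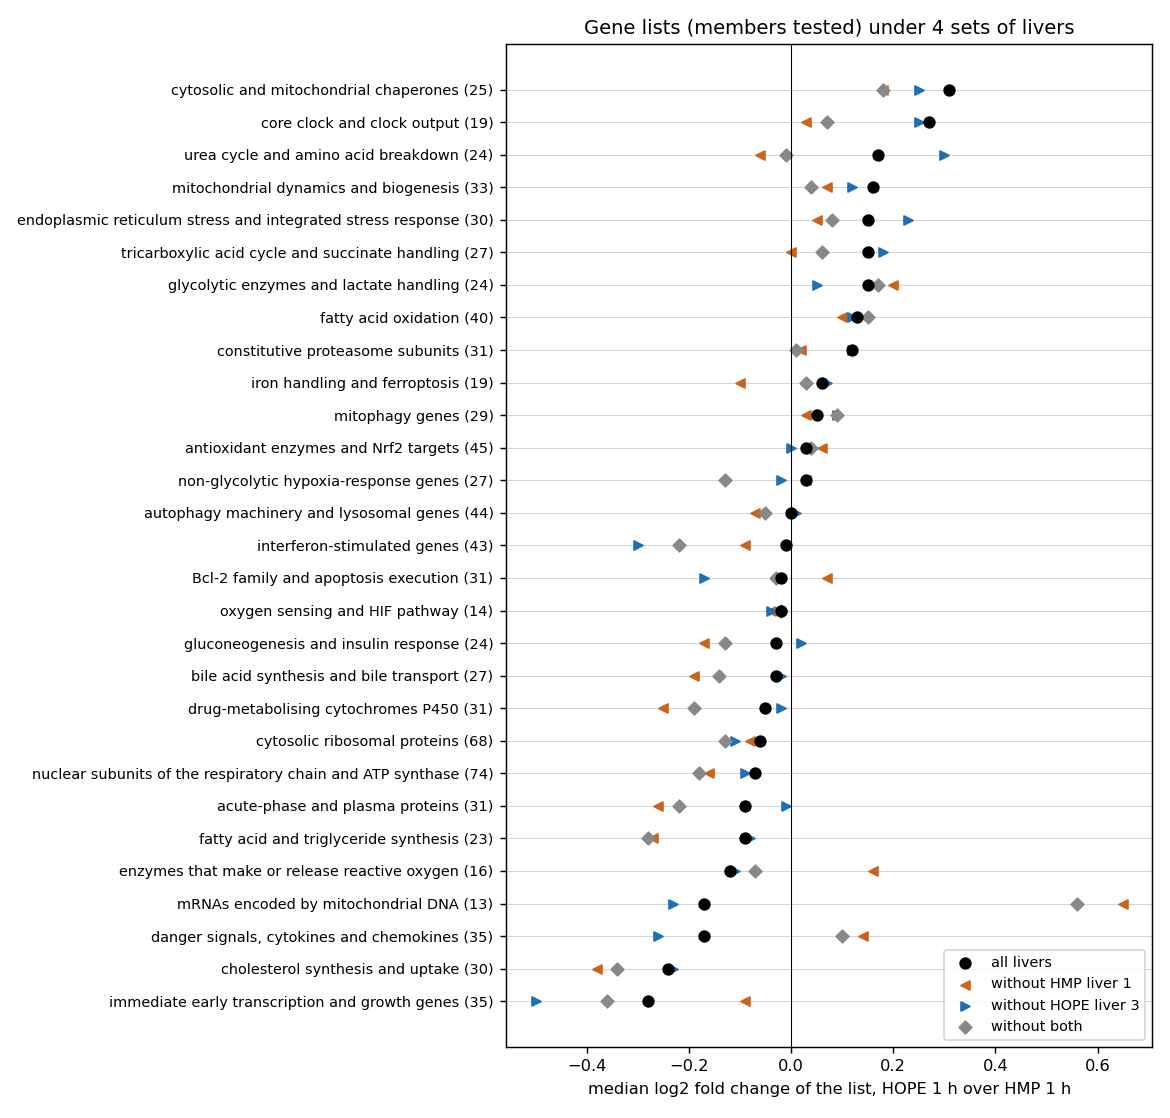
Median log2 fold change, HOPE 1 h over HMP 1 h, of each functional gene list with at least 5 members tested (number in parentheses), using all livers, without HMP liver 1, without HOPE liver 3 and without both. Chaperones (0.31) and immediate early genes (-0.28) lie at the ends with all livers, and the mitochondrial mRNAs move from -0.17 to 0.65 without HMP liver 1.

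Clock genes differed widely between livers, in and out of the groups. Of 19 core clock and output genes, 13 were higher and 6 lower with oxygen, and the median of 0.27 was 0.03 without HMP liver 1. Npas2, a partner of Bmal1 in the activating arm, stood at 21.1, 20.6 and 7.43 CPM in the HMP livers and 6.84, 1.3 and 1.84 CPM in the HOPE livers (log2 fold change -2.30, SE 0.70). Arntl, which encodes Bmal1, stood at 36.2, 34 and 13 CPM against 19.9, 4.74 and 1.78 CPM, where HMP liver 3 was below HOPE liver 1. Per2, of the repressing arm, stood at 2.46, 6.37 and 7.17 CPM against 8.55, 25.6 and 20.4 CPM (log2 fold change 1.77, SE 0.60).

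HMP livers 1 and 2 therefore had high Npas2 and Arntl with low Per2, HOPE livers 2 and 3 the reverse, and HMP liver 3 and HOPE liver 1 lay between. The clock output gene Dbp stood at 7.88, 13.6 and 84.7 CPM against 37.8, 185 and 174 CPM. The unperfused livers also spread, with Per2 at 4.12 to 20.1 CPM. The time of day at which each liver was taken was not found in the labels or methods, and the part of clock phase in the other differences was not tested.

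**Figure D5:**
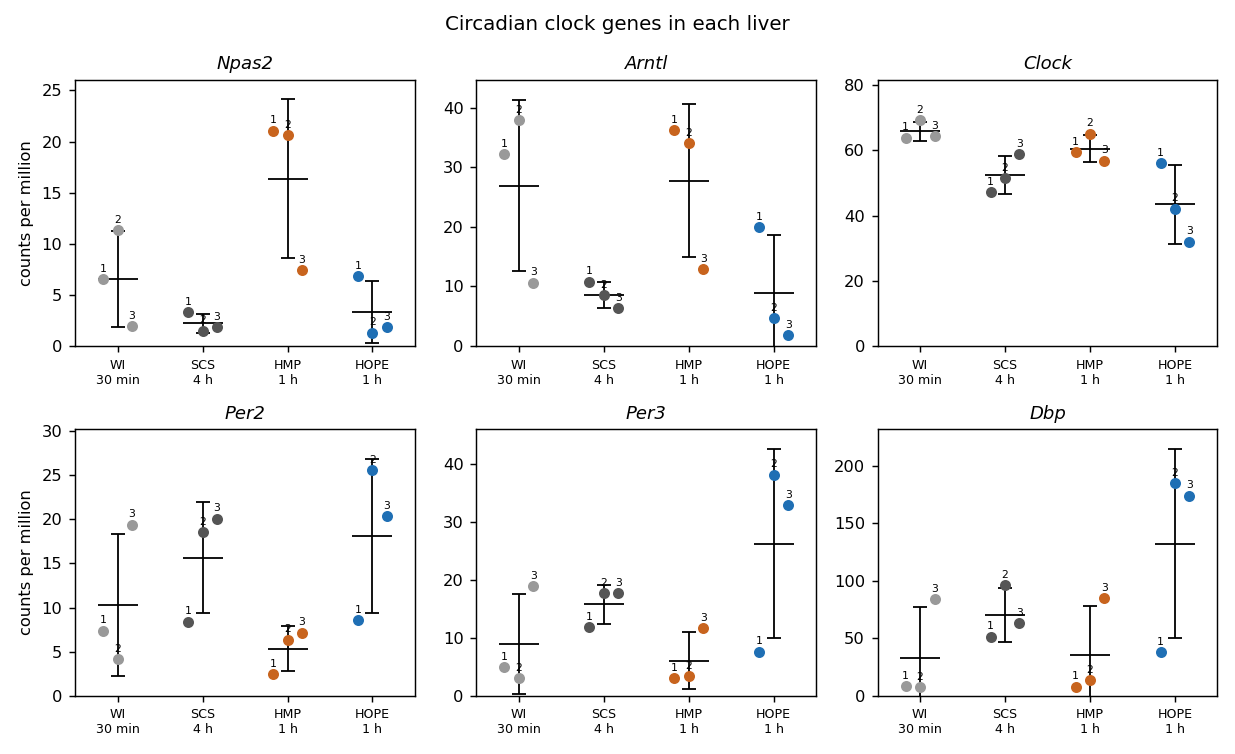
Levels in CPM of 6 clock genes in each of the 12 livers by group, with replicate numbers and the mean ± SD of 3 livers, the lower bar ending at 0 where it would pass it. Npas2 ran from 7.43 to 21.1 CPM in the HMP livers and from 1.3 to 6.84 CPM in the HOPE livers, with the reverse order for Per2.

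The last 6 genes come from the 15 higher and 15 lower with the largest separated differences over the 3 fits, and were picked from these after their values were seen, so they are not all the largest. Aspa, which cleaves N-acetylaspartate, stood at 5.6, 4.62 and 6.45 CPM in the HMP livers and 1.37, 1.24 and 2.2 CPM in the HOPE livers, and 0.785 to 2.13 CPM in the unperfused livers. The log2 fold change was -1.78 (SE 0.37; adjusted p = 0.558 by the edgeR quasi-likelihood test, and 0.00793 by DESeq2). Slc6a6, the taurine transporter, stood at 22.4, 30.5 and 15.2 CPM against 9.57, 2.55 and 4.41 CPM, with 3.31 to 14.1 CPM in the unperfused livers (log2 fold change -2.04, SE 0.47). Both were high in the HMP livers and at the level of unperfused liver with oxygen. Zbtb47, a zinc finger gene, had the same form, at 3.6, 5.37 and 6.25 CPM against 2.51, 1.78 and 1.94 CPM.

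On the side of higher levels, Rgs12, a regulator of G protein signalling, stood at 3.6, 3.06 and 2.43 CPM against 5.75, 5.51 and 5.4 CPM, and the HOPE livers were above all 9 others (log2 fold change 0.87, SE 0.22). LOC108348144, ranked first in that selection, stood at 0.343, 0.375 and 0.329 CPM against 20.5, 0.415 and 29.7 CPM. HOPE liver 2 thus lay barely above the HMP livers, and 1 WI and 1 SCS liver were also high, at 22.3 and 15.2 CPM. LOC100912026 was high in HMP livers 1 and 3, at 37.3 and 214 CPM, with 6.31 CPM in HMP liver 2 and 4.67 to 5.3 CPM in the HOPE livers. Each was thus high in 2 of the 3 livers of one group, and the third lay near the level of the other group.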

How the data were processed

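RNA was sequenced from 12 rat livers, 1 library each, in 4 groups of 3 taken from the sample labels. The authors aligned paired-end reads to build Rnor 6.0 with Hisat2 and deposited raw read counts per gene; no source names the counting tool or the strand setting. The deposited FPKM values, and the authors' columns of group means (signal), log2 fold changes and p-values for pairs of groups, were not used. All count columns matched a liver (0 unmatched).

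Genes were filtered by filterByExpr and scaled by TMM, and HOPE 1 h was tested against HMP 1 h with the edgeR (4.0.16) quasi-likelihood test in a fit of all 12 livers (8 residual degrees of freedom), with Benjamini-Hochberg adjustment over 13687 genes and a threshold of 0.05. The study names no test for these counts. Levels are TMM-scaled CPM; scores are means of log2 CPM (prior count 2) centred on the 12 livers. The code was tested on simulated data. DESeq2 (1.42.0) and limma (3.58.1) were alternatives, as were other filters, scalings and sets of livers.

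Gene lists and members were chosen with earlier results of these data known. Named genes were the 15 higher and 15 lower genes of at least 5 CPM whose livers did not overlap, with the largest smallest change over 3 fits, genes the study measured, and for each list the first 3 members and the 3 of lowest p with at least 1 CPM; other names were chosen after their values were seen. Promoters were matched by symbol to RefSeq (GRCr8). Labels do not say whether livers of a group shared a day, so p-values measure the spread between these livers.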

Additional observations from a re-analysis of the deposited data

How the results depend on the processing

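The count of called genes was 0 under every filter, scaling and set of livers tried with edgeR and limma, except that leaving out single HMP or HOPE livers gave 0 to 2 (RT1-DMb and Nrep, without HOPE liver 1); DESeq2 called 15, and an unadjusted p under 0.05 gave 1024. That unadjusted count ran from 590 without HOPE liver 2 to 1641 without HMP liver 1, and was 672 with only the 6 perfused livers. Of the 1024 genes, 627 were shared with the 1641, which is 61.2% of the first and 38.2% of the second list, and 630 with the 1001 counted without HOPE liver 3. The 1521 genes with separated livers became 2166 to 3863 when 1 liver was left out, since fewer livers separate more easily. The mitochondrial share, -0.928 percentage points, ranged from -3.32 to 3.62 when single livers were left out, was 2.85 without HMP liver 1 and HOPE liver 3 together, and as a log2 ratio of mitochondrial to nuclear counts was 0.11. Leaving out single livers moved Fos between -0.84 and 0.48 and Hmox1 between -0.44 and 0.40, both turned by HMP liver 1; Hmox1 was 0.34 without both livers; the cause was not tested. With a replicate block, 0 genes were called and 1004 passed the unadjusted threshold. Livers of the same number did not deviate together (r = -0.156, 0.0825 and -0.189). With 3 livers a group these values cannot show whether same-numbered livers shared a day or were paired. With 3 livers a group, the median SE of 0.24 log2 units limits what can be detected.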

Other observations

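Genes for building ribosomes were also looked at, in a list drawn up after their values were seen, so that the counts are a description without a test. Of 71 genes for ribosome biogenesis and RNA polymerase I tested, 59 were higher and 12 lower with oxygen, with a median log2 fold change of 0.24 (0.19 without HMP liver 1, 0.34 without HOPE liver 3), and 17 had all HOPE livers higher (23.9%, beside 6.22% of all genes) against 0 lower (beside 4.89%). Utp20, a component of the small subunit processome, stood at 11, 10.1 and 12.4 CPM in the HMP livers and 22.9, 24 and 14.3 CPM in the HOPE livers. Mybbp1a, a nucleolar protein, stood at 39.3, 37.3 and 47.3 CPM against 68.7, 59.4 and 53.9 CPM. Cad, which carries out the first steps of pyrimidine synthesis, stood at 20.4, 19.6 and 22.7 CPM against 37.6, 36.4 and 33.1 CPM (log2 fold change 0.77, SE 0.16), above the means of 22.3 CPM after static storage and 24.2 CPM after warm ischemia. HOPE liver 3 was the lowest of its group for each of these 3 genes. Cad came from a list of pyrimidine genes, also drawn up after values were seen. Of 13 tested, 8 were higher and 5 lower, with a median of 0.12 (0.02 without HMP liver 1, 0.11 without HOPE liver 3). All HOPE livers were higher for 3 (23.1%, beside 6.22% of all genes) and lower for 1 (7.69%, beside 4.89%).

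The gene with the lowest unadjusted p was Fitm2, an endoplasmic reticulum protein of lipid droplet formation. It stood at 35.8, 33.5 and 35.3 CPM in the HMP livers and 58.9, 57.4 and 50.5 CPM in the HOPE livers (log2 fold change 0.67, SE 0.11; adjusted p = 0.558 by the edgeR quasi-likelihood test, 0.000109 by DESeq2), and the means after static storage and warm ischemia were 55.3 and 63.4 CPM. Pnpla7, a lysophospholipase, was also higher in every HOPE liver, at 155, 169 and 163 CPM against 217, 236 and 219 CPM, with 232 and 237 CPM in the unperfused groups. Pnrc1, a nuclear receptor coactivator, was lower in every HOPE liver, at 88.3, 86.3 and 84.2 CPM against 61.8, 51.5 and 45.2 CPM. These 3 genes were named after their values were seen.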
